A study of Mus musculus with 2 samples.

Results

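Complement is a set of plasma and membrane proteins that tags cells and debris for removal. Its 6 genes described here are C3, Cfb, C4b, Serping1, Cd55 and Cd59a, taken by symbol, and all 6 were among the 17245 genes of the deposited table. RNA came from whole pancreatic islets of mice, the small endocrine organs made up mainly of insulin-producing β-cells. There was 1 library from wild-type mice (WT) and 1 from mice with a β-cell knockout of cGAS (KO), a sensor of cytosolic DNA. The strain, the age, the number of animals in a library, the deleted exon and the driver of the deletion are not stated in the labels. Non-β cells of the islet are outside the stated deletion. With 1 library for each genotype there is no test between genotypes, and each ratio below compares 2 libraries.

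Complement starts by 3 routes. In the classical route C1q binds a surface and the proteases C1r and C1s cut C4 and C2. In the lectin route, mannose-binding lectins and their proteases do the same. In the alternative route factor B (Cfb) joins C3b, and properdin (Cfp) steadies the resulting enzyme. All routes meet at C3, whose fragments coat the surface, and end in the membrane attack complex of the terminal components. C1 inhibitor (Serping1) blocks C1r and C1s, decay-accelerating factor (Cd55) takes apart the C3-cutting enzymes, and Cd59a stops the assembly of the attack complex. Liver makes most plasma complement, but many tissues transcribe these genes locally, and cytokines and interferons are known to raise C3, Cfb, C4b and Serping1.

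The promoter of C3 is shown because C3 was among the higher genes in the KO-labelled library and the study's title names CEBPβ, a factor of the C/EBP family. RefSeq promoter sequences on GRCm38.p6 were matched for 3 of the 6 genes, C3, Cd59a and Cd55. The line gives the 250 bases before the start site of C3, which is the start of the gene, 5′ to 3′ on the minus strand at chr17:57228137-57228386, with the motif match in capitals.
C3: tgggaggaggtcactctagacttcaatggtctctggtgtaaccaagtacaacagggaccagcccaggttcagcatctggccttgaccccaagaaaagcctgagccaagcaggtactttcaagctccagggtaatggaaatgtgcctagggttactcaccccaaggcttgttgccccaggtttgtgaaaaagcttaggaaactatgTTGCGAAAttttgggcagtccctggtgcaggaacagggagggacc

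Both strands were searched for 4 motifs, a C/EBP motif written TTGCNNAA, an NF-kB motif written GGNNTTNCC, an interferon response motif written GAAANNGAA and a STAT motif written TTCNNNGAA. C3 held 1 C/EBP match, TTGCGAAA, which began 45 bases before the start site, and no match to the other 3. Of 32851 promoter windows of the same length, 9.56% held that motif. The windows of the other genes belong to start sites inside the annotated gene, 48 bases from its start in Cd59a and 2265 bases in Cd55, so the start of those genes was not searched. The Cd59a window held 1 interferon response match, which began 187 bases before that internal start site, and 7.13% of all windows held that motif. The Cd55 window held 1 NF-kB match, which began 61 bases before its internal start site, and 13.5% of all windows held it. The STAT motif, found in 7.02% of windows, had no match in these 3 windows, and no match overlapped another. A match describes letters in the window and was not measured as a binding site.

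The genotype labels were checked first. Cgas itself was at 0.521 FPKM (reads scaled to gene length in kilobases and to 1000000 reads of a library) in the KO library and 0.205 in WT, which is not lower, so the former is called the KO-labelled library throughout. These values rest on 31 and 16 reads. Such a total over the gene cannot tell whether the deleted exon was read, and an exchange of the 2 labels would turn every direction and place given here. Whole read numbers were recovered from the values with library totals of 14537660 reads for KO and 19097001 for WT. β-cell markers were abundant in both libraries, with a summed 437697 and 397194 FPKM over 12 genes. Albumin, a hepatocyte gene, was at 0.734 and 0.661 FPKM, and the 7 of 8 liver-cell markers in the table summed to 9.80 and 5.06 FPKM.

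Of the effector genes, C3 and Cfb were at least 2-fold higher in the KO-labelled library and C4b was higher within that limit, while Serping1 and Cd59a lay closer to an equal level and Cd55 rested on too few reads for a direction. Differences are log2((KO + 1)/(WT + 1)) on FPKM, which understates low genes, and a gene was called at a 2-fold difference on that scale if it reached 1 FPKM in either library. Of the 6 genes, 5 reached 1 FPKM, each in both libraries, and 2 of these, C3 and Cfb, were called higher and none lower. Among all 12428 genes that reached 1 FPKM, 6.98% were called higher and 3.88% lower. Higher genes were 64.3% of these calls, but 46.5% with both libraries brought to equal sums and 44.3% when the 20 highest genes were left out of those sums. The median log2 ratio of the 5 kept genes was 0.75, against 0.077 for all kept genes, and all 5 lay above 0, as did 6766 of the 12428, though Serping1 was below 0 under 3 of the alternatives. In whole islets, a different number of cells of a type and a different amount of RNA per cell cannot be told apart.

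**Figure D1:**
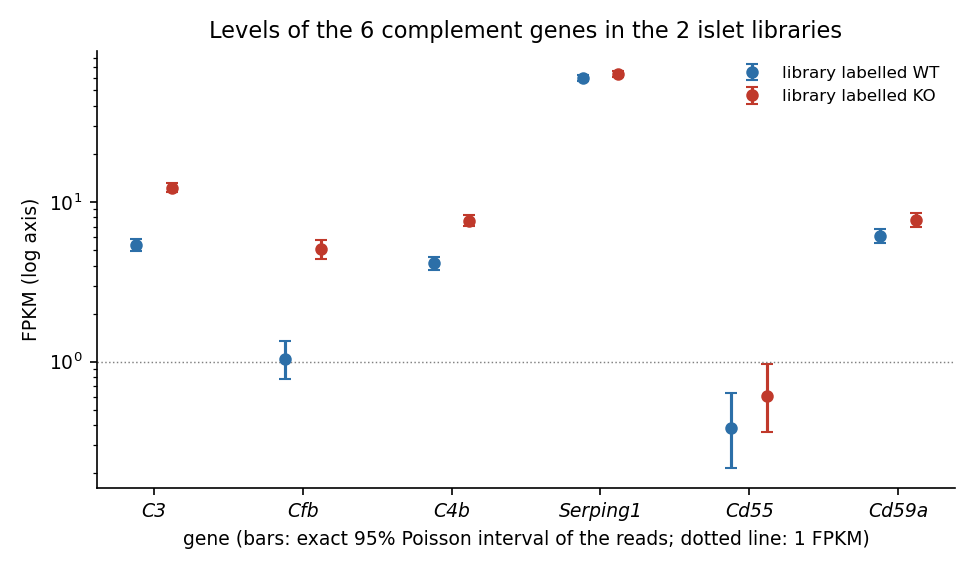
Level of each gene in FPKM (vertical log axis) in the WT (blue) and KO (red) libraries, with exact 95% Poisson intervals of the recovered reads as bars and a dotted line at 1 FPKM. Cfb is at 1.04 FPKM in WT and 5.05 in the KO-labelled library, Serping1 is at 59.9 and 63.4, and the bars of Cd55 overlap.

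Cfb encodes factor B, the protease of the alternative route. It was at 1.04 FPKM in WT, from 55 reads, and 5.05 FPKM in the KO-labelled library, from 203 reads. The ratio was 4.85 (exact Clopper-Pearson 95% interval 3.58 to 6.66, counting error only) and the log2 ratio was 1.57. This was the widest ratio of the 6, at place 119 from the top among the 12428 kept genes. With a pseudocount of 5 FPKM the log2 ratio of Cfb was 0.73, short of the limit.

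Cfb lies on chromosome 17 of GRCm38.p6 from 34856374 to 34862514. Its neighbours are close: C2, the protease partner of C4, begins 87 bases beyond one end and Nelfe, a subunit of a transcription elongation factor, ends 1 base beyond the other. C2 was at 2.34 FPKM in the KO-labelled library and 2.44 in WT, a ratio of 0.961 (0.724 to 1.27), and no difference in this neighbouring complement gene could be detected at this depth. Nelfe was at 41.0 and 27.4 FPKM, a log2 ratio of 0.56. In GENCODE M21 a predicted gene, Gm20547, overlaps 79.5% of the exon bases of Cfb on the same strand, and it has no row in the table. How reads in that overlap were assigned is not stated, so the level of Cfb is less certain than that of C3.

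C3 encodes the protein on which all routes converge. It was at 5.36 FPKM in WT, from 533 reads, and 12.3 FPKM in the KO-labelled library, from 929 reads. The ratio was 2.29 (2.06 to 2.55) and the log2 ratio 1.06, at place 707 of the kept genes. C3 was thus close to the 2-fold limit. It was short of the limit at 0.96 with both libraries brought to a sum of 1000000, at 0.93 when scaled without the 20 highest genes, and at 0.74 with a pseudocount of 5 FPKM. C3 lies on chromosome 17 from 57203967 to 57228136, and none of the 50-base windows of its longest coding transcript occur in transcripts of another gene.

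C4b encodes complement C4, cut at the start of the classical and lectin routes. It was at 4.13 FPKM in WT, from 432 reads, and 7.65 FPKM in the KO-labelled library, from 609 reads. The ratio was 1.85 (1.63 to 2.10) and the log2 ratio 0.75, within the 2-fold limit, at place 1814. C4b lies on chromosome 17 from 34728139 to 34743902. Its close copy C4a, annotated by RefSeq as a transcribed pseudogene in this build, has no row in the table. Of the 50-base windows of the C4b transcript, 35.2% also occur in C4a, so part of the C4b reads could belong to either gene.

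Serping1 encodes C1 inhibitor, a serpin that also restrains plasma kallikrein and factor XII. It was at 59.9 FPKM in WT, from 2095 reads, and 63.4 FPKM in the KO-labelled library, from 1687 reads. The ratio was 1.06 with an interval from 0.991 to 1.13, and no difference could be detected at this depth, although it was the most deeply covered of the 6. Its log2 ratio of 0.080 lay beside the median of all kept genes and turned to -0.065, -0.069 and -0.21 under other scalings and a correction for GC content and length. Serping1 lies on chromosome 2 from 84765360 to 84775444 and shared no 50-base window with another gene.

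Cd59a encodes a small protein held on the cell surface by a GPI lipid anchor. It was at 6.10 FPKM in WT, from 388 reads, and 7.72 FPKM in the KO-labelled library, from 374 reads. The ratio was 1.27 (1.096 to 1.46) and the log2 ratio 0.30, within the limit. An interval wholly above 1 was found for 42.1% of the 12406 kept genes with recovered reads, so counting error alone does not set Cd59a apart. Cd59a lies on chromosome 2 from 104095753 to 104115410, and 3.98% of its transcript windows occur in its copy Cd59b, which was lower in level at 0.643 and 0.399 FPKM in the KO-labelled library and WT.

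Cd55 encodes decay-accelerating factor, also GPI-anchored. It was at 0.386 FPKM in WT, from 15 reads, and 0.608 FPKM in the KO-labelled library, from 18 reads, below 1 FPKM in both and so not among the kept genes. The ratio was 1.58 with an interval from 0.750 to 3.36, too wide for a direction. Cd55 lies on chromosome 1 from 130429798 to 130465009. Its copy Cd55b, which shares 13.3% of the transcript windows of Cd55, was at 0.360 FPKM from 11 reads in the KO-labelled library and 0.0249 FPKM from 1 read in WT.

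The levels, which FPKM gives per length, came in a similar order in both libraries apart from C3 and Cd59a. Serping1 was highest, with 735th place of all genes in the KO-labelled library and 733rd in WT, and made up 65.6% and 77.9% of the summed FPKM of the 6. In the KO-labelled library the order then ran C3, Cd59a, C4b, Cfb and Cd55, with the counting intervals of Cd59a and C4b overlapping. In WT it ran Cd59a, C3, C4b, Cfb and Cd55, with those of Cd59a and C3 overlapping. C3, Cfb and C4b together summed to 24.97 FPKM in the KO-labelled library and 10.5 FPKM in WT, or 25.8% and 13.7% of the 6. Serping1 stood at 2.54 times that effector sum in the KO-labelled library and 5.69 times in WT. C3 was at 2.43 times the level of Cfb in the KO-labelled library and 5.15 times in WT.

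**Figure D2:**
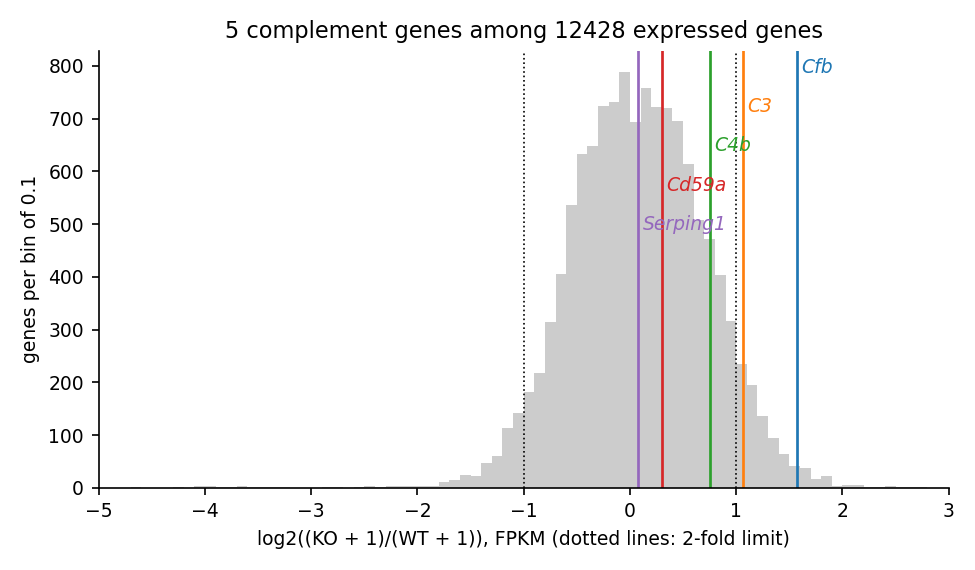
Number of genes (vertical axis) by log2((KO + 1)/(WT + 1)) of FPKM in bins of 0.1, for all 12428 kept genes (grey), with the 5 kept complement genes as coloured lines and the 2-fold limits dotted. Cfb at 1.57 and C3 at 1.06 lie beyond the upper limit, C4b at 0.75 just inside it, and Serping1 at 0.080 near the centre.

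Other genes of the pathway were compared through a list of 50, of which 42 were in the table and 23 reached 1 FPKM. Of these 23, 5 were called higher and none lower, with a median log2 ratio of 0.57. Among all kept genes 6.98% were called higher and 3.88% lower, with a median of 0.077. The 5 were C1qa, C1qb, C1qc, Cfp and C8g. Under the correction for GC content and transcript length only Cfp, at 1.34, was past the limit. With that correction 3.23% of all kept genes were called higher.

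The 3 chains of C1q, the recognition protein of the classical route, were more abundant than C3, Cfb and C4b in both libraries. C1qa was at 88.7 FPKM in the KO-labelled library and 35.6 in WT, C1qb at 61.3 and 20.9, and C1qc at 36.7 and 16.0. Their log2 ratios were 1.29, 1.51 and 1.15, and 0.46, 0.78 and 0.45 under the correction for GC content and length. C3 under the same correction was at 1.01, and Cfb at 1.38. C1q is a product of macrophages, whose markers are given below.

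The proteases C1ra and C1s1, named after their values were seen because Serping1 blocks their products, were at 4.06 against 2.64 FPKM and 12.1 against 7.41 FPKM. Their ratios were 1.54 (1.22 to 1.95) and 1.63 (1.44 to 1.86), both within the limit. Serping1 stood at 3.92 times their sum in the KO-labelled library and 5.97 times in WT. Of 8 lectin-route genes 6 were in the table and none reached 1 FPKM, with Masp2 at 0.675 and 0.393, Masp1 at 0.541 and 0.376, and Fcna at 0.401 and 0.381 FPKM.

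Properdin, Cfp, which steadies the enzyme that factor B forms, had the widest ratio of the 23. It was at 20.0 FPKM in the KO-labelled library and 4.77 in WT, a ratio of 4.20 (3.48 to 5.08). Factor D, Cfd, the protease that cuts factor B, has no row in the table and is not analysed here.

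Terminal components differed in direction. C8g, a lipocalin chain of C8, was at 3.28 against 1.14 FPKM, with a log2 ratio of 1.00 at the limit and of 0.97, 0.90, 0.43 and 0.45 under 4 of the alternatives. C7 was at 4.10 against 2.20 FPKM. C8b, the β chain of C8, was the most abundant terminal gene and lower in the KO-labelled library, at 23.4 against 30.9 FPKM, a ratio of 0.759 (0.693 to 0.830). Hc, the mouse C5 gene, was at 0.0123 FPKM from 1 read and listed at 0 in WT.

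No other regulator was called. Clusterin, Clu, a soluble inhibitor of the attack complex, was at 90.4 and 72.4 FPKM, the carboxypeptidase Cpn1, which trims the anaphylatoxins, at 38.5 and 40.2, and vitronectin, Vtn, at 9.46 and 5.04. Cr1l, or Crry, the broadly expressed rodent membrane regulator of C3 cleavage, was at 16.6 FPKM in the KO-labelled library and 25.9 in WT, a ratio of 0.640 (0.571 to 0.715); intervals wholly below 1, as for Cr1l and C8b, were found for 34.3% of genes. Cr1l was the most abundant membrane regulator in both libraries, above Cd59a at 7.72 and 6.10 FPKM. Susd4 was at 7.30 and 4.08 FPKM. Of 6 kept receptor genes all lay above 0 and within the limit, with Cd93 at 12.1 and 7.58, Itgb2 at 4.11 and 2.68 and Itgax at 3.99 and 2.15 FPKM.

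**Figure D3:**
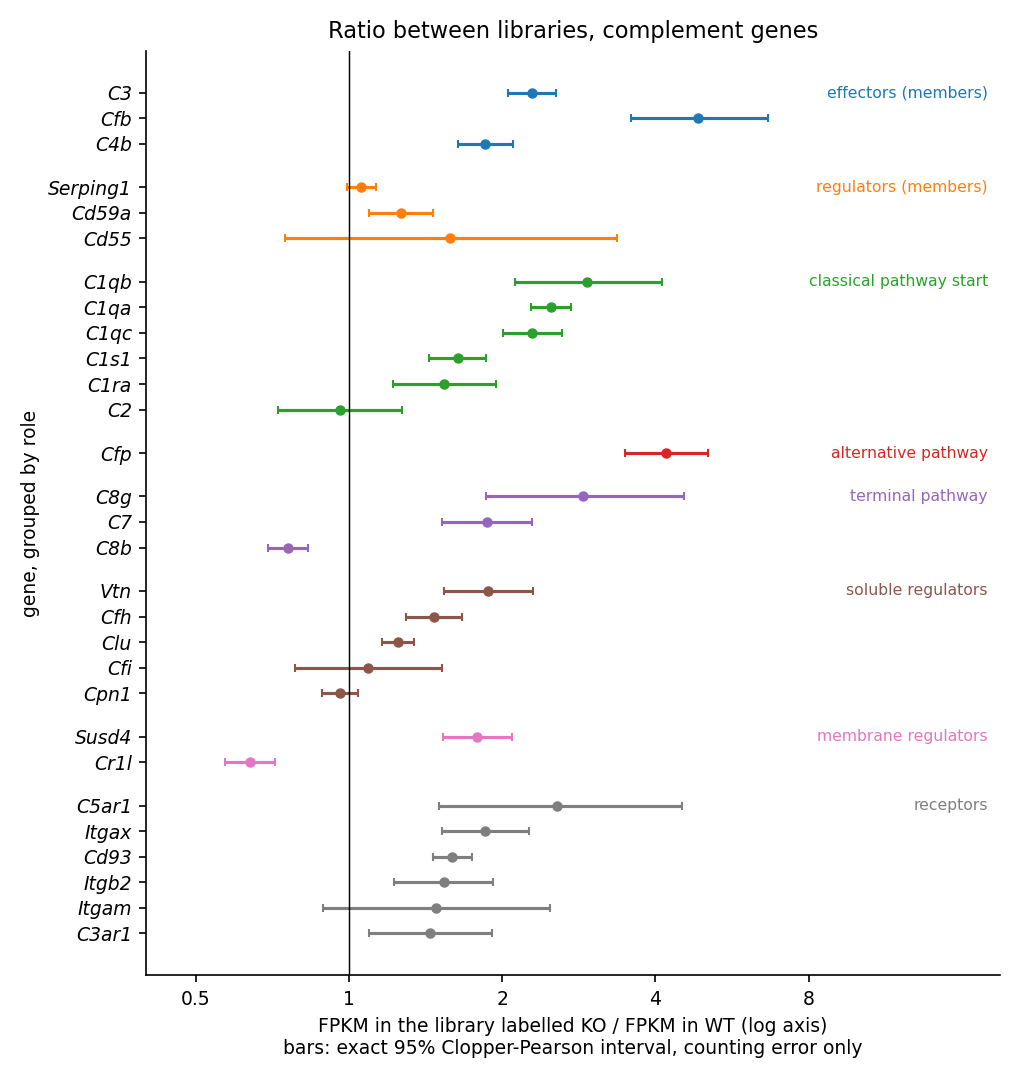
Ratio of FPKM in the KO-labelled library over WT (horizontal log axis) for the 6 genes and the 23 other kept complement genes, grouped by role, with exact 95% Clopper-Pearson intervals of counting error as bars (wider than needed for C1qb, for which only the smallest possible reads are known). Cfb at 4.85 and Cfp at 4.20 are farthest right, and Cr1l at 0.640 and C8b at 0.759 are left of 1 with bars that exclude 1.

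Lists of related genes were described in the same way, but their medians and counts were not recomputed under the alternatives. The acute-phase list also held receptors and signalling genes, and 13 of its genes were kept. Of these, 2 were called higher, the cytokine receptor Osmr (log2 ratio 1.28) and Socs3 (1.11), and 1 lower, the receptor Il6ra (13.5 against 48.7 FPKM, -1.78). The other 10 were within the limit, and the median of the 13 was 0.56. The metallothioneins Mt1 and Mt2, the most abundant of the list, were at -0.26 and -0.10. Of 31 kept interferon-stimulated genes, 15 were called higher and 0 lower, against 6.98% and 3.88% of all kept genes. Their median was 0.98, B2m was at 0.91, and Isg15, Oas2 and Irf7 were at 1.85, 1.64 and 1.42. All 5 kept members lay within the wide range of the interferon-stimulated list, -0.11 to 1.85, so this does not set C3 and Cfb apart. Serping1 lay low in that range. A link of the members to interferon was not tested. Serping1 restrains the contact and kinin system. Of 3 kept genes on the list for that system, the bradykinin receptor Bdkrb2 was called higher, at 4.74 against 1.44 FPKM. The other kept genes, the plasminogen activators Plat and Plau, were within the limit, and the kallikrein and factor XII genes were below 1 FPKM. Of 26 kept genes of GPI anchor synthesis none was called higher and 1, Pigg, lower, with a median of 0.034. Of 23 kept genes of other GPI-anchored proteins 5 were called higher and 1 lower, with a median of 0.64, led by Gp2 (-2.45), Ly6a (1.48) and Bst2 (1.27).

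Markers of macrophages, endothelial cells and fibroblasts lay above 0 together with C3, Cfb and C4b, though most stayed within the 2-fold limit. All 12 kept of 14 macrophage markers lay above 0, 5 of them called higher, with a median of 0.80, a range from 0.28 to 1.74 and a summed level of 702 FPKM in the KO-labelled library and 342 in WT. The macrophage median was 0.49 under the correction for GC content and length. Cd74, Lyz2 and Aif1 had log2 ratios of 1.11, 1.16 and 1.74. All 14 endothelial markers lay above 0, 6 called higher, with a median of 0.95, a range from 0.58 to 1.63 and sums of 766 and 339 FPKM. All 16 kept of 17 fibroblast and pericyte markers lay above 0, 4 called higher, with a median of 0.84, a range from 0.64 to 1.53 and sums of 332 and 170 FPKM. None of these markers was at 0 in either library.

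Set against those sums, the 4 plasma genes parted. Per 100 FPKM of summed macrophage markers, C3 was at 1.75 FPKM in the KO-labelled library and 1.57 in WT, C4b at 1.09 and 1.21, and Cfb at 0.719 and 0.305. Serping1 was at 9.03 and 17.6 on the same scale. Over all 3 marker sums, the KO-labelled library stood at 1.01 to 1.17 times WT for C3, at 0.818 to 0.946 times for C4b, at 2.14 to 2.48 times for Cfb and at 0.468 to 0.540 times for Serping1. Cfb thus differed by more than each sum, and Serping1 by less. Cd74 alone was 421 of the 702 FPKM of the macrophage sum in the KO-labelled library and 194 of 342 in WT. Single markers varied more than the sums. The widest marker ratios were 4.68 (Aif1) for macrophages, 5.88 (Sox17) for endothelial cells and 3.46 (Mfap5) for fibroblasts and pericytes, against 4.85 for Cfb. The narrowest among kept markers were, in the same order, 1.24 (Csf1r), 1.51 (Kdr) and 1.62 (Col1a2), against 2.29 for C3 and 1.85 for C4b. The part of these cells in the complement result was not tested.

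Acinar, ductal and endocrine markers differed in direction. Medians lay below 0 for acinar, β-cell and α-cell markers, and above 0 for ductal and for δ- and PP-cell markers. All 13 kept of 17 acinar markers were called lower, with a median of -3.93 and sums of 139 and 2141 FPKM, and Prss1 and Ptf1a were at 0 in the KO-labelled library. Ductal markers had a median of 0.50, with 1 of 9 called higher, and sums of 455 and 414 FPKM; under the correction for GC content and length the median was 0.14. β-cell markers had a median of -0.55, with 4 of 12 called lower and 1 higher, and α-cell and δ- and PP-cell markers had medians of -0.0445 and 0.64, and of -0.19 and 0.042 under that correction. Of 6 adipocyte markers 3 were in the table and 1, Fabp4, reached 1 FPKM. Fabp4 was called higher, at 87.6 FPKM in the KO-labelled library against 36.9 in WT. Adipoq was at 0 in WT and Cidec at 0 in the KO-labelled library. Mesothelial markers summed to 24.5 and 24.1 FPKM, with Wt1 and Lrrn4 at 0 in WT, and lymphocyte markers to 24.6 and 16.6 FPKM. Of 11 lymphocyte markers 2 were kept and differed in direction. Cd79a was called lower, at 2.68 FPKM in the KO-labelled library against 7.11 in WT, and Cd52 higher, at 19.6 against 8.02.

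**Figure D4:**
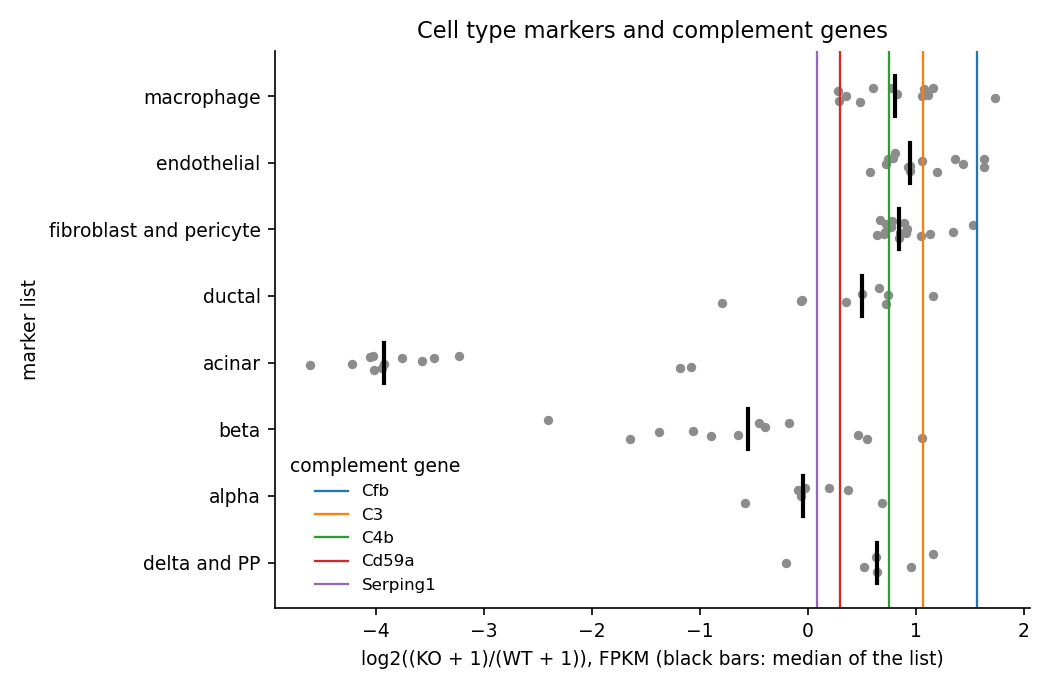
Log2((KO + 1)/(WT + 1)) of FPKM for each kept marker (grey points) of 8 cell type lists, with the list median as a black bar and the 5 kept complement genes as coloured lines. C4b at 0.75 and C3 at 1.06 run through the macrophage, endothelial and fibroblast markers, and Serping1 at 0.080 lies below all kept markers of these 3 lists.

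The study's title also names CEBPβ. Cebpb was at 10.4 FPKM in the KO-labelled library and 7.62 in WT, a ratio of 1.37 (1.13 to 1.65), and its log2 ratio of 0.41 turned to -0.46 under the correction for GC content and length. Of the 6 genes all but Serping1 kept their sign under every alternative tried, even Cd55 with its few reads, so a kept sign does not set C3 and Cfb apart. The log2 ratios ran from 0.74 to 1.18 for C3 and from 0.73 to 2.17 for Cfb.

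**Figure D5:**
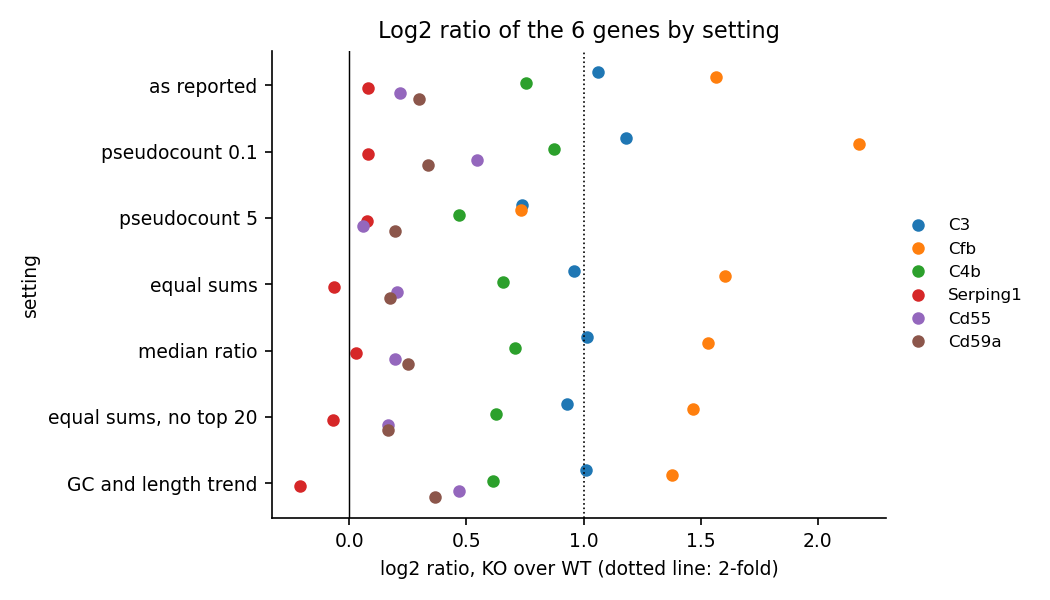
Log2 ratio of the 6 genes (horizontal axis) as reported and under 6 alternative settings (rows), with the 2-fold limit dotted. Cfb is past the limit in all but the pseudocount of 5 FPKM, C3 lies on either side of the limit, and Serping1 lies on either side of 0.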

How the data were processed

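The data were 1 table of islet RNA with 1 column per genotype, WT and KO, grouped by the genotype label. The deposited values are FPKM, computed by the authors; per the labels' protocols, a SMARTER mRNA-Seq kit was used. Per the submitters' processing notes, the genome was mm10 (GRCm38); the aligner, counter, annotation and strand setting are not given in the sources used. Whether animals were pooled is likewise not given.

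FPKM values were used without rescaling. Totals were found by scanning for those that turn low values into whole reads over whole gene lengths. With lengths from 60 to 30000 bases, 17178 genes (99.6%) gave whole reads within 1e-05 of a read plus 1e-09 of the read number, against 1.40% of 999 shuffled pairs. The smallest such reads were used; the true reads can be a whole multiple. Intervals are at 95% and cover counting error only, since each genotype has 1 library. PCR copies are not independent molecules, so the intervals may be too narrow even for counting error. No p-value was computed and no count model was fitted to FPKM. The pseudocount and the floor were 1 FPKM, and a list median needed 5 kept genes. The procedure was tested on a simulated KO library against WT over 17178 genes. Among genes with at least 5 FPKM in WT, 100 were raised and 100 lowered 4-fold, and 100% of each were called. Of the intervals, 95.8% held the true ratio. Reads were drawn as Poisson counts, the error the intervals assume, so this checks the computation and not variation between animals or PCR copies. Changes near the 2-fold limit were not simulated, nor changes in genes below 5 FPKM in WT, such as Cfb and C4b.

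The members, gene lists, motifs and limits were chosen with earlier results of these data known. The text names all 6 members, their close copies and the nearest coding genes of Cfb, which are C2 and Nelfe. Apart from copies, the nearest genes of the other members are not given. It also names every other complement gene past the limit, the 3 most abundant of each role, and the most abundant or widest genes of other lists. Hc, Cfd, C1ra, C1s1, albumin and markers listed at 0 were added. Alternatives were pseudocounts of 0.1 and 5 FPKM, no floor and a floor of 5 FPKM, 3 scalings, and removal of a lowess trend (fraction 0.3, 3 iterations) on GC content and transcript length from GENCODE M21, for 98.2% of 12428 kept genes. Coordinates and promoters are from RefSeq on GRCm38.p6. Python 3.11.15, scipy 1.17.1 and statsmodels 0.14.6 were used.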

Additional observations from a re-analysis of the deposited data

How the results depend on the processing

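Results for the 6 genes, for the other complement genes as a group and for the cell type lists with a median were recomputed under 8 alternatives. Of 144 recomputed values, 109 stayed within their bounds, or within 1.5 times for counts. Bounds were the counting interval for a gene and, for a list, the medians of its genes' lower and upper interval ends. A change of floor cannot alter the ratio of a single gene, so those values were bound to stay. With scaling to a sum of 1000000 and with scaling without the 20 highest genes, the median of all kept genes shifted by -0.12 and -0.13, the share of higher among called genes went from 64.3% to 46.5% and 44.3%, and 1 of the 6 genes, Cfb, was called higher in place of 2. With a pseudocount of 5 FPKM 0 of the 6 were called, and the number called over all genes went from 868 higher and 482 lower to 305 and 181, against 1556 and 716 with 0.1 FPKM and 394 and 354 with the GC content and length trend removed. Serping1 turned to -0.065 and -0.069 under those scalings and to -0.21 with the trend removed. A pseudocount of 0.1 FPKM put Cfb at 2.17 and Cd55 at 0.54, and one of 5 FPKM put C3 at 0.74, Cfb at 0.73 and C4b at 0.47. The number of other complement genes called higher was 3 with that pseudocount and 1 with the trend removed, in place of 5, and their median was 0.32 with that pseudocount and 0.26 without a floor. Marker medians that moved were, for scaling to a sum, by the median ratio, without the highest genes and with the trend removed, -0.70, -0.60, -0.70 and -0.62 for β-cells, -0.19, -0.096, -0.19 and -0.19 for α-cells, and 0.49, 0.59, 0.49 and 0.042 for δ- and PP-cells. Endothelial markers were at 0.82 without the highest genes and 0.70 with a pseudocount of 5 FPKM, under which fibroblast and pericyte markers were at 0.59 and acinar markers at -3.35. With the trend removed acinar markers were at -4.38, ductal at 0.14 and macrophage markers at 0.49, and with a floor of 5 FPKM macrophage markers were at 1.06. Causes of these moves were not tested. Depth gives no direction for Cd55, with 18 and 15 reads. No paired analysis was possible because each genotype has 1 library.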
